A study of Mus musculus with 14 samples.

Results

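Hepatocytes next to the central vein of the liver lobule receive Wnt signals that keep β-catenin active, and 9 genes that respond to this signal were described in liver RNA from 14 TALLYHO mice. They were chosen by name: every row of the table of raw counts whose gene name was *Glul*, *Oat*, *Slc1a2*, *Rhbg*, *Axin2*, *Rnf43*, *Znrf3*, *Lgr5* or *Tbx3*. This gave 9 of the 55487 genes in the table, each on 1 row, and all 9 had enough reads for the test. TALLYHO mice are a polygenic model of type 2 diabetes, and all 14 were males of 8 to 12 weeks. The 7 mice of the vehicle group received water by oral gavage and the 7 of the indole group received 20 mg/kg indole, a tryptophan metabolite of gut bacteria. Both groups were given 2 doses per day on 7 consecutive days and 2 further doses between the metabolic tests that followed, and the right liver lobe was taken on day 11. The labels name no batch, no pairing and no genetic change in either group.

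In the liver lobule, endothelial cells around the central vein release Wnt2, Wnt9b and the Wnt amplifier R-spondin 3. Wnt ligands bind Frizzled receptors and LRP5 or LRP6 on nearby hepatocytes, β-catenin then escapes a destruction complex that contains AXIN proteins, APC and GSK3, and it switches on genes together with TCF factors. Some target genes feed back on the pathway: *Axin2* encodes a scaffold of the destruction complex, *Rnf43* and *Znrf3* encode ubiquitin ligases that remove Frizzled receptors from the cell surface, and *Lgr5* encodes a receptor through which R-spondins block these ligases. Others serve the nitrogen metabolism of the pericentral zone, where glutamate and ammonia that escaped the urea cycle are turned into glutamine.

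Each library held 15197498 to 21060376 reads counted on genes, and a level is given as CPM (a gene's reads scaled to a common library size) after TMM normalisation, which scales libraries on the assumption that most genes do not differ. The albumin gene *Alb* lay between 47405.5 and 78246.7 CPM over the libraries, as is usual for whole liver. 4 libraries stood apart by their TMM factor, which was 1.07 to 1.08 in G1 and G4 of the vehicle group and G2 and G3 of the indole group and 0.931 to 1.004 in the other 10. These are the libraries numbered 1 to 4 in the labels, which do not say what the order of the numbers stands for. In indole-treated mouse G8, 9 markers of Kupffer cells and macrophages summed to 463 CPM, against 93.8 to 251 CPM in the vehicle group. Because whole liver was sequenced, fewer pericentral hepatocytes and less RNA per cell cannot be told apart in any of these values.

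Levels differed widely among the members, which can be compared as CPM per kilobase of gene length. *Oat*, the mitochondrial ornithine aminotransferase, stood at 971±238 CPM per kilobase (SD, *n*=14) and *Glul*, the glutamine synthetase, at 140.0±17.1. *Slc1a2*, a glutamate transporter, stood at 4.45±1.20. Then came *Rnf43* at 2.84±0.605, *Rhbg*, an ammonia transporter, at 2.59±0.508 and the transcription factor gene *Tbx3* at 2.37±0.397. *Axin2* was at 1.13±0.385, *Znrf3* at 0.979±0.203 and *Lgr5* at 0.279±0.0836 CPM per kilobase. Ranked among the 12653 genes tested, *Oat* was number 59, *Glul* number 393 and *Lgr5* number 11645. The levels of *Oat* and *Glul* did not overlap with each other or with any other member, and *Lgr5* lay below every other member. From *Slc1a2* down to *Znrf3*, the ranges of neighbours in this order overlapped. *Rnf43* lay above *Rhbg* in 9 of 14 mice and *Rhbg* above *Tbx3* in 9 of 14, so the order of these 3 genes is not fixed by the data. *Tbx3* lay above *Axin2* in all 14 mice, although their ranges overlapped between mice.

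The stretches of DNA just before 3 of these genes are shown. *Glul* and *Slc1a2* were taken as the pair with the highest Pearson correlation between mice, and *Axin2* because its level followed the split of the libraries. Each is the 250 bases before the RefSeq start on GRCm38.p6, on the strand of the gene, all plus. Capitals mark matches to the TCF motif CTTTGAA or CTTTGAT on either strand.

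Glul, chr1:153899679-153899928: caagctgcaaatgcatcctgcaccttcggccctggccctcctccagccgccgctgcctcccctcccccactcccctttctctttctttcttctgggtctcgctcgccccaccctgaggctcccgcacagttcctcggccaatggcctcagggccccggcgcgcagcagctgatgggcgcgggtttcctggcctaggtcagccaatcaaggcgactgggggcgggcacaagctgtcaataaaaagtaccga
Slc1a2, chr2:102706188-102706437: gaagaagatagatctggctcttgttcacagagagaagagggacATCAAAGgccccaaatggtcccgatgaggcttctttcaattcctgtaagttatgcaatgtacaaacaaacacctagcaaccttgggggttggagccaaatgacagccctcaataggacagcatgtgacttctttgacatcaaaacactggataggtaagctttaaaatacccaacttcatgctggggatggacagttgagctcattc
Axin2, chr11:108920099-108920348: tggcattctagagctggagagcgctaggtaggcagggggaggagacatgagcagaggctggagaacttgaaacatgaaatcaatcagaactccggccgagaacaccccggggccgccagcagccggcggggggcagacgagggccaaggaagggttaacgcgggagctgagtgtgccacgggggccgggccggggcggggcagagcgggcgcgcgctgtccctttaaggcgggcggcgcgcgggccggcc

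The *Glul* and *Axin2* stretches held no match, and the *Slc1a2* stretch held 1, read as ATCAAAG, which is CTTTGAT on the other strand. RefSeq gave 6 such stretches for 5 of the 9 members, and 1 of the 6 held a match. Among 32851 stretches of the same length before mouse genes, 7.48% held one. The RefSeq start of *Slc1a2* lies 47779 bases inside the gene as the counts table draws it, and a short untranslated exon of *Slc1a2* falls within the stretch. The GENCODE annotation also places an exon of *Teddm2*, on the opposite strand, in the *Glul* stretch. *Teddm2* had 7 to 45 reads per mouse. The stretches were read as letters only, and the data hold no measure of binding.

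Indole-treated mice were compared with vehicle-treated mice to see whether the pericentral Wnt response differed with treatment. No member differed by an adjusted *p* below 0.05 in edgeR's quasi-likelihood test. Of the 9 members, 4 were higher and 5 lower in the indole group, with log2 fold changes between −0.30 and 0.28. Their median was −0.067, beside 0.0042 over all genes tested. The groups overlapped for every member. No share over all genes is given beside this, and overlap alone does not show equal levels. At an unadjusted *p* below 0.05, 1 member was lower and 0 were higher, where 2.28% of all genes tested were lower and 1.53% higher (3.81% in either direction). At an adjusted *p* below 0.05 it was 0 of 9 members and 0% of all genes, and among the 12653 genes no adjusted *p* lay below 0.998 (edgeR, Benjamini–Hochberg). Exact permutation tests of the mean log2 CPM over the 3432 relabellings of the mice gave a two-sided *p* below 0.05 for 0 of 9 members. No share over all genes is given for this test either.

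**Figure D1:**
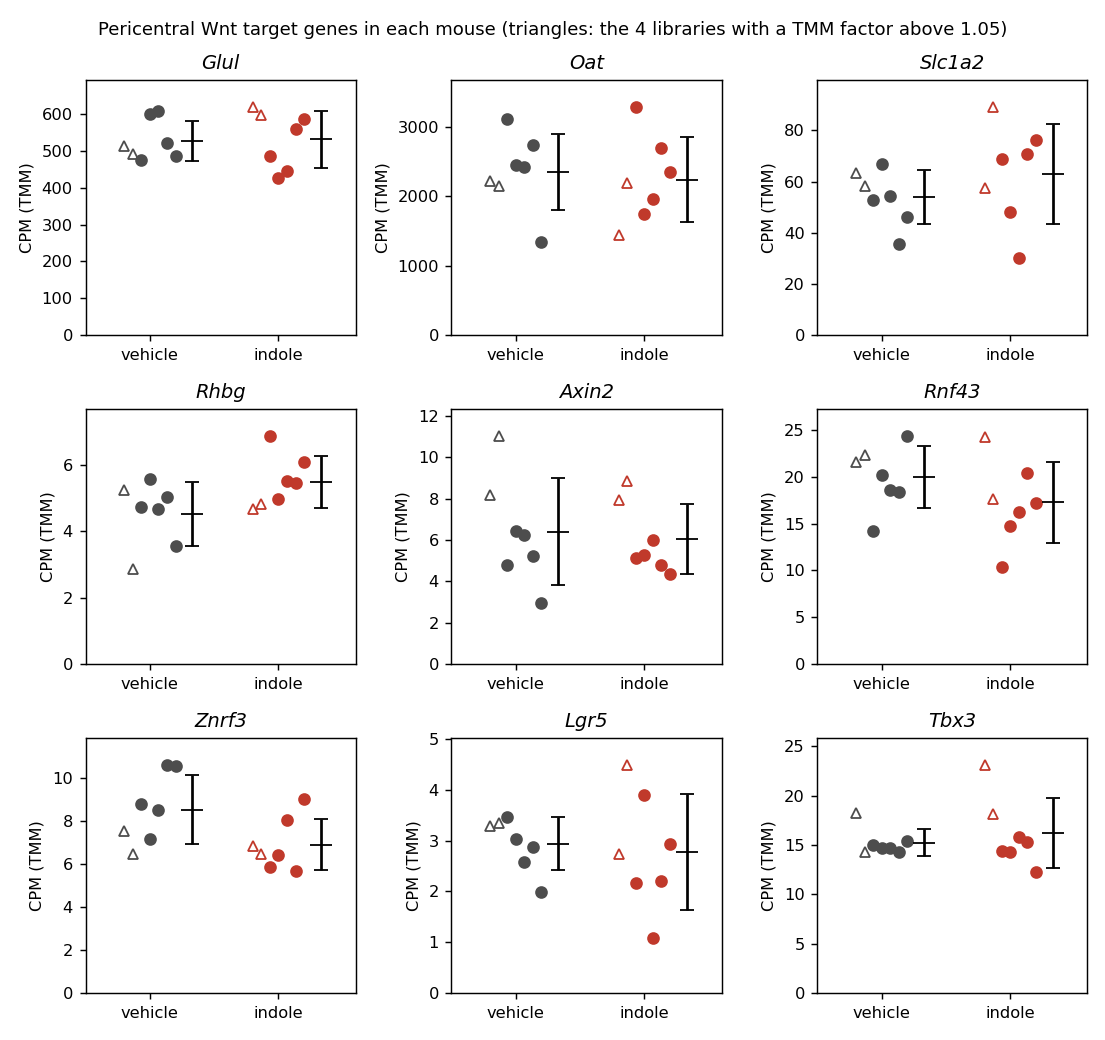
Level of each member in each mouse, in CPM after TMM normalisation, with the mean and SD of 7 mice beside each group; every axis starts at 0. The groups overlap in all 9 panels, and the 4 libraries with a high TMM factor (triangles) lie above the other 10 for *Axin2*.

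Of the enzymes, *Glul* (ENSMUSG00000026473, chromosome 1, 153899944 to 153909723) had between 6609 and 12312 reads per mouse. Its lowest, median and highest levels were 474, 512 and 607 CPM with vehicle and 427, 559.8 and 619 CPM with indole. The means were 527±54.7 and 531±77.7 CPM (SD, *n*=7), nearly equal, with the indole mice spread over a wider range at both ends. The log2 fold change was 0.011 (standard error, SE, 0.0942), and its 95% interval ran from −0.19 to 0.21, which as a ratio of indole to vehicle is 0.879 to 1.15. This is the narrowest interval among the members, and the adjusted *p* from edgeR was 0.998.

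*Oat* (ENSMUSG00000030934, chromosome 7, 132557478 to 132576398), which feeds ornithine into glutamate, was the most abundant member, with 27537 to 50111 reads per mouse. Its lowest, median and highest levels were 1345, 2418 and 3115 CPM with vehicle and 1447, 2194 and 3281 CPM with indole. Both groups thus covered nearly the same range, with G13 lowest among vehicle-treated mice and G2 lowest among indole-treated mice. Indole against vehicle, it had a log2 fold change of −0.067 (SE 0.184, 95% interval −0.46 to 0.32, edgeR adjusted *p*=0.998). The gene lies within the drawn bounds of *Fgfr2* on the same strand, which had 310 to 684 reads per mouse.

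Both transporter genes had a log2 fold change above 0, and neither passed the test. *Rhbg* (ENSMUSG00000104445, chromosome 3, 88242874 to 88254709) had 52 to 114 reads per mouse, few enough that counting error alone is about 10.6% of its level. It lay at 2.85, 4.74 and 5.57 CPM (lowest, median, highest) with vehicle and at 4.68, 5.47 and 6.88 CPM with indole. The vehicle median was exceeded in 6 of the 7 mice given indole. The log2 fold change was 0.28 (SE 0.154, 95% interval −0.044 to 0.60), with an unadjusted *p* of 0.0869 and an adjusted *p* of 0.998 from edgeR, and the exact permutation test gave a two-sided *p* of 0.0693. Leaving out 1 mouse at a time gave 0.19 (without G4, edgeR unadjusted *p*=0.190) to 0.34 (without G9, unadjusted *p*=0.0496, not passing after adjustment), and the unadjusted *p* was above 0.05 in each of the other fits that left out 1 mouse.

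*Slc1a2* (ENSMUSG00000005089, chromosome 2, 102658659 to 102790784) lay at 35.5, 54.6 and 67.0 CPM (lowest, median, highest) with vehicle and at 30.1, 68.8 and 89.1 CPM with indole. The indole group held both the lowest mouse, G8, and the highest, G3, and its SD was 19.5 CPM against 10.6 CPM. Its log2 fold change was 0.23 (SE 0.206, 95% interval −0.22 to 0.67, edgeR adjusted *p*=0.998). Leaving out 1 mouse at a time gave 0.12 to 0.35. It was lowest without G3 (0.12, edgeR unadjusted *p*=0.550), followed by G11 (0.15, 0.469), and highest without G8 (0.35, 0.0319), which did not pass after adjustment.

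Of the feedback inhibitors, the ubiquitin ligase gene *Znrf3* (ENSMUSG00000041961, chromosome 11, 5276324 to 5444847) was the member with the smallest *p*. It had 90 to 223 reads per mouse. Its lowest, median and highest levels were 6.48, 8.54 and 10.6 CPM with vehicle and 5.69, 6.48 and 9.02 CPM with indole. The highest of all were G11 and G13, both given water, and 1 of the 7 indole-treated mice, G14, exceeded the vehicle median. The means were 8.54±1.61 and 6.92±1.21 CPM (SD, *n*=7). The log2 fold change was −0.30 (SE 0.138, 95% interval −0.59 to −0.017), with an unadjusted *p* of 0.0391 and an adjusted *p* of 0.998 from edgeR, and the exact permutation test gave a two-sided *p* of 0.0536. The unadjusted *p* was above 0.05 in 9 of the 14 fits that each left out 1 mouse, namely those without G2, G3, G5, G6, G7, G10, G11, G12 or G13, and reached 0.0994 in them.

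The related ligase gene *Rnf43* (ENSMUSG00000034177, chromosome 11, 87662722 to 87735539) lay at 14.2, 20.2 and 24.4 CPM (lowest, median, highest) with vehicle and at 10.4, 17.2 and 24.3 CPM with indole. The highest mice of both groups were level, and the indole group reached lower, in G5. For this gene the log2 fold change was −0.21 (SE 0.148, 95% interval −0.52 to 0.10, edgeR adjusted *p*=0.998). Leaving out 1 mouse at a time gave −0.31 to −0.12. The ends of this range came without G2, the highest indole-treated mouse (−0.31, edgeR unadjusted *p*=0.0348, adjusted *p*=0.971), and without G5, the lowest (−0.12, unadjusted *p*=0.344).

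*Axin2* (ENSMUSG00000000142, chromosome 11, 108920349 to 108950783) had 62 to 201 reads per mouse and was the most variable member in the vehicle group, with a coefficient of variation of 40.6%. In the vehicle group the mice lay at 2.94, 4.80, 5.21, 6.24, 6.44, 8.19 and 11.03 CPM, and in the indole group at 4.34, 4.79, 5.11, 5.26, 5.99, 7.93 and 8.83 CPM. The 2 highest mice of each group were the libraries with a high TMM factor: these 4 lay between 7.93 and 11.03 CPM and the other 10 between 2.94 and 6.44 CPM, with no overlap. Of all genes tested, 1.75% had these 4 libraries above the other 10 and 1.89% had them below. Between the treatment groups the log2 fold change was −0.083 (SE 0.236, 95% interval −0.58 to 0.41, edgeR adjusted *p*=0.998). Among the 10 other libraries alone it was −0.00091 (SE 0.200), and with the split as a term in the fit it was −0.064 (SE 0.153). Without vehicle-treated mouse G4 it was 0.10. Over all libraries, the Pearson *r* of log2 CPM with the log2 TMM factor was 0.71 for *Axin2*, 0.67 for *Tbx3* and 0.64 for *Rnf43*. It was −0.55 for *Rhbg* and ran from −0.44 (*Oat*) to 0.38 (*Lgr5*) for the remaining members. Spearman's rho was 0.63 for *Axin2*, 0.55 for *Tbx3*, 0.62 for *Rnf43* and −0.57 for *Rhbg*. CPM is itself scaled by this factor, and no share over all genes is given beside these values. What separates the 4 libraries from the other 10 was not tested.

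The R-spondin receptor gene *Lgr5* (ENSMUSG00000020140, chromosome 10, 115450311 to 115587780) had the fewest reads, 16 to 84 per mouse, so that counting error alone is about 13.9% of its level. It lay at 1.99, 3.03 and 3.47 CPM (lowest, median, highest) with vehicle and at 1.08, 2.73 and 4.496 CPM with indole. The lowest mouse, G8, and the highest, G3, were both in the indole group, and the coefficient of variation was 41.1% against 17.7% in the vehicle group; the difference in spread was not tested. Its log2 fold change was −0.068 (SE 0.236, 95% interval −0.56 to 0.42, edgeR adjusted *p*=0.998) and 0.069 without G8.

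*Tbx3* (ENSMUSG00000018604, chromosome 5, 119670669 to 119684724) was the steadiest member in the vehicle group, where 6 of 7 mice lay between 14.3 and 15.4 CPM and G1 lay at 18.3 CPM. The indole group had a median of 15.3 CPM and ran from 12.2 to 23.1 CPM, with G2 highest and G3 next at 18.1 CPM. The 3 highest mice of all, G2, G1 and G3, were among the 4 libraries with a high TMM factor, whose mean was 18.5 CPM against 14.6 CPM in the other 10, although the ranges overlapped (14.3 to 23.1 and 12.2 to 15.8 CPM). The log2 fold change was 0.089 (SE 0.115, 95% interval −0.15 to 0.33, edgeR adjusted *p*=0.998), −0.017 without G2 and −0.034 without the 4 libraries. The antisense transcript *Tbx3os1* had 7 to 30 reads per mouse, and as the strand setting of the counting is not stated, its reads and those of *Tbx3* may not be fully separate.

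**Figure D2:**
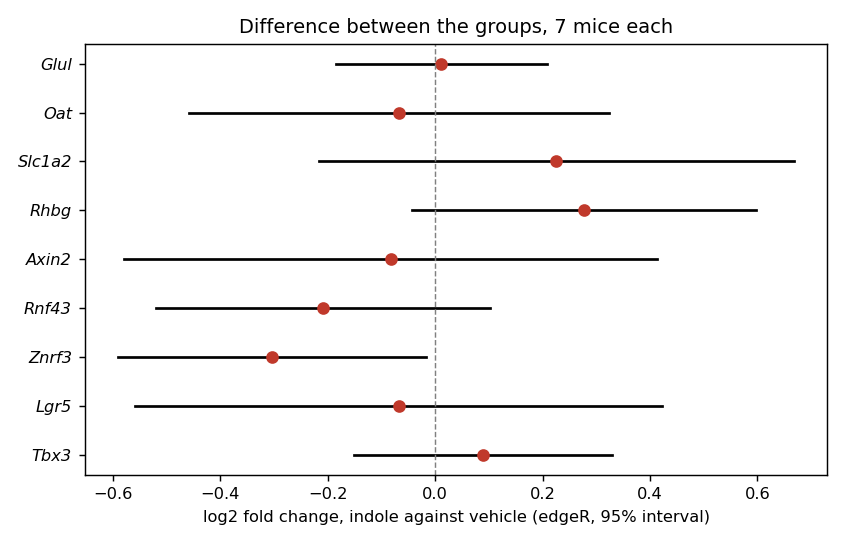
Log2 fold change of each member, indole against vehicle, from edgeR (points) with its 95% interval (lines), 7 mice per group. The interval of *Znrf3*, −0.59 to −0.017, is the only one that does not reach 0, and none passed after adjustment over all genes.

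Whether a mouse with a high level of a given member also had high levels of the rest was examined over the 14 mice. The members showed no common rise and fall. Of the 36 pairs, 22 had a positive and 14 a negative Pearson correlation of log2 CPM, with a median *r* of 0.065, where the median over all pairs of genes tested was −0.0014. A Pearson *r* above 0.5 was found for 2 of the 36 pairs and for 6.92% of all gene pairs, and one below −0.5 for 3 of the 36 and 6.66% of all gene pairs. By permutation tests, 4 pairs had an unadjusted *p* below 0.05 for Pearson's *r* and 1 for Spearman's rho, and 0 passed after Benjamini–Hochberg adjustment over the 36 pairs (smallest adjusted *p*=0.353 for *r* and 0.625 for rho). Within the vehicle group the median *r* over pairs was 0.089 and within the indole group 0.058, and 24 of the 36 pairs had the same sign in both. Among the 10 libraries without a high TMM factor the median was 0.010. No share over all gene pairs is given beside the counts by sign or by unadjusted *p*.

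**Figure D3:**
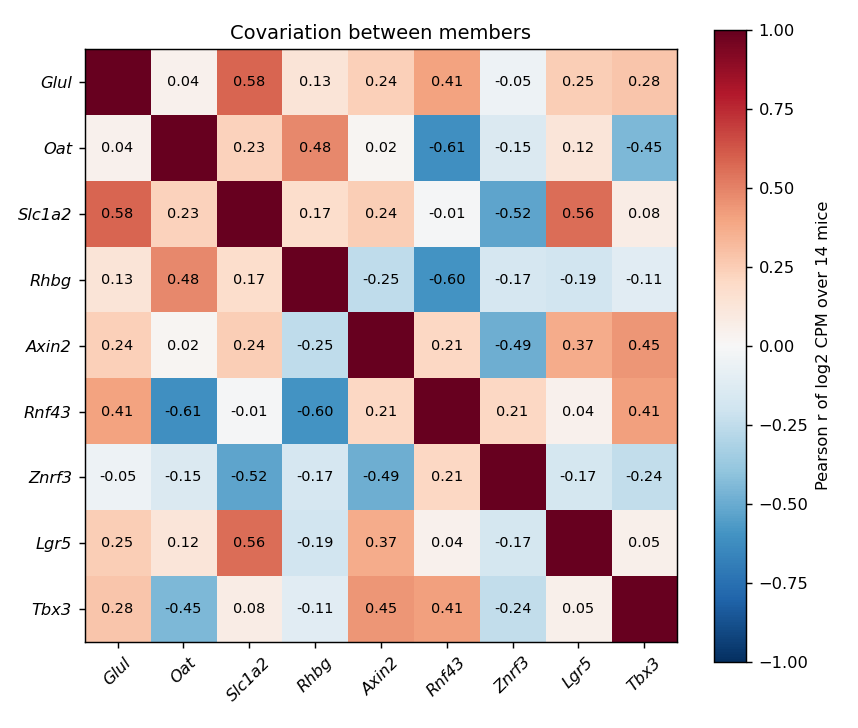
Pearson correlation of log2 CPM over the 14 mice for every pair of members, on a colour scale from −1 (blue) to 1 (red). *Glul* with *Slc1a2* is the highest at 0.58 and *Oat* with *Rnf43* the lowest at −0.61, and none of the 36 pairs passed after adjustment.

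*Glul* and *Slc1a2*, which make glutamine and take up its precursor glutamate, formed the pair with the highest Pearson correlation. Pearson's *r* was 0.58 (permutation *p*=0.0294, adjusted *p*=0.353) and Spearman's rho 0.51 (permutation *p*=0.0673, adjusted *p*=0.625). The *r* was 0.31 among vehicle mice and 0.71 among indole mice, 0.58 among the 10 libraries without a high TMM factor, and 0.63 without G2 and G7, the mice farthest from the *Glul* median. G8 was low for both genes and G3 high for both, and the *r* without G2 and G7 still held these mice. *Lgr5* and *Slc1a2* had an *r* of 0.56 (permutation *p*=0.0399, adjusted *p*=0.359) and a rho of 0.29 (permutation *p*=0.311, adjusted *p*=0.714). This relation rested on G3 and G8, since without them *r* was −0.14. By rank, *Rhbg* and *Oat* were the highest pair, with a rho of 0.512 (permutation *p*=0.0644, adjusted *p*=0.625) against 0.508 for *Glul* and *Slc1a2*. *Rhbg* and *Oat* had an *r* of 0.48 (permutation *p*=0.0819, adjusted *p*=0.421). This *r* was 0.53 among vehicle mice, 0.82 among indole mice and 0.65 among the 10 libraries without a high TMM factor. The plot of levels shows the pairs with the highest and the lowest *r* mouse by mouse.

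**Figure D4:**
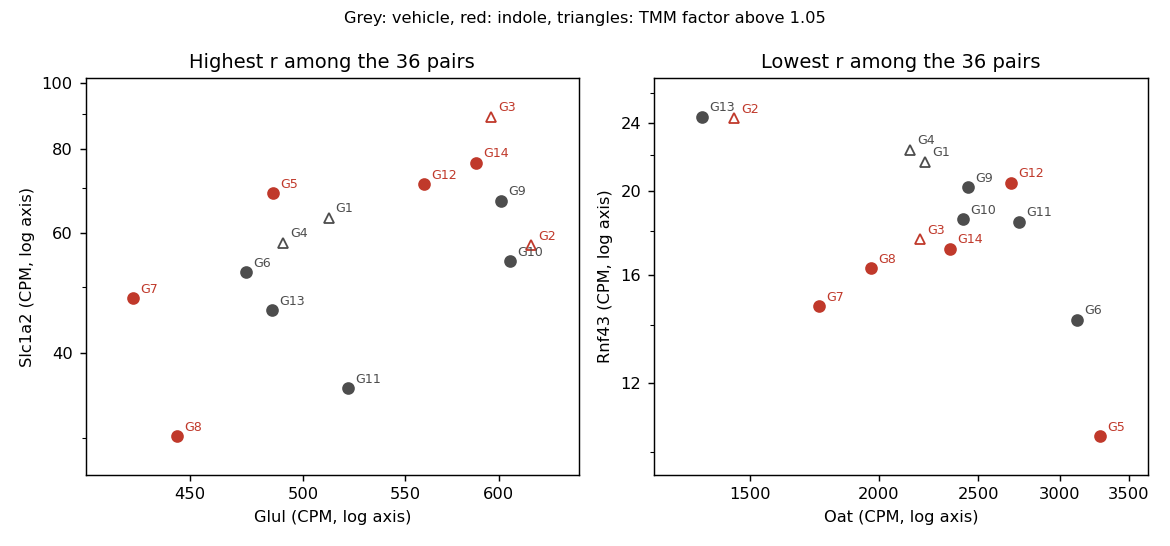
Levels of *Glul* and *Slc1a2* (left) and of *Oat* and *Rnf43* (right) in each mouse, in CPM on log axes, grey for vehicle and red for indole, with triangles for the 4 libraries with a high TMM factor. Mice high for *Glul* tend to be high for *Slc1a2* (*r*=0.58), and G13 and G2, lowest for *Oat*, are highest for *Rnf43* (*r*=−0.61).

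The lowest correlations were those of *Rnf43* with *Oat* and *Rhbg*. Its *r* was −0.61 with *Oat* (permutation *p*=0.0194, adjusted *p*=0.353) and −0.60 with *Rhbg* (permutation *p*=0.0278, adjusted *p*=0.353), with a rho of −0.50 (permutation *p*=0.0737, adjusted *p*=0.625) and −0.54 (permutation *p*=0.0482, adjusted *p*=0.625). Both were negative in both groups, at −0.85 and −0.62 for *Oat* and −0.45 and −0.72 for *Rhbg* in the vehicle and the indole group. Among the 10 libraries without a high TMM factor they were −0.55 and −0.65. Without the 2 mice farthest from the median they were −0.38 for *Oat* (G2 and G13 left out) and −0.51 for *Rhbg* (G4 and G13 left out). The ligase genes *Rnf43* and *Znrf3*, which act on the same receptors, had an *r* of 0.21 (permutation *p*=0.477, adjusted *p*=0.803) and a rho of 0.081 (permutation *p*=0.784), and *r* was −0.33 without G5 and G13. *Znrf3* had a negative *r* with 7 of the other 8 members and *Rhbg* with 5. *Glul* had a positive *r* with 7 of the other 8, *Axin2*, *Lgr5* and *Slc1a2* with 6, and *Tbx3*, *Oat* and *Rnf43* with 5. *Axin2* and *Tbx3* had an *r* of 0.45 (permutation *p*=0.113, adjusted *p*=0.453) and a rho of 0.32 (permutation *p*=0.261). This *r* was 0.095 in the vehicle and 0.86 in the indole group, 0.81 without G4 and G13, the mice farthest from the *Axin2* median, and 0.060 among the 10 libraries without a high TMM factor.

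Over mice, the members' mean *z* score of log2 CPM was highest in G3 of the indole group at 0.577 and lowest in G8 of the same group at −0.67. In G3, 5 of the 9 members were above their own mean, and in G8 4 of 9. Over all mice this count ran from 2 of 9 in G7 and G13 to 7 of 9 in G9, so no mouse was high or low for every member. The genes whose levels followed *Glul* most closely among 12644 genes were *Ezh2*, a histone methyltransferase, with an *r* of 0.86 and a rho of 0.77 over 14 mice, *Gm43597* (0.82 and 0.83), *Arhgef3* (0.78 and 0.73), *Brca2* (0.78 and 0.74) and *Gm28875* (0.78 and 0.78). *Ezh2* and *Gm43597* were also among the 5 genes closest to the mean *z* score, with an *r* of 0.88 and 0.83, beside *Zfp217* (0.84), *Oga* (0.83) and *Npr2* (0.80). These are the highest of many values, *Ezh2* was at 2.62 CPM and *Gm43597* at 0.68 CPM, and they are given as a description.

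The rest of the Wnt pathway was counted in lists of ligands, receptors, transducers, nuclear factors and inhibitors. Of 25 Wnt ligand, R-spondin and secretion genes, 7 had enough reads to test and 10 had no read in any mouse. In this list 4 genes were higher and 3 lower with indole. Of all genes tested, 1.53% were higher and 2.28% lower at an unadjusted *p* below 0.05. The list's median log2 fold change was 0.20, and at that threshold 1 of its genes was higher and 0 lower. That gene was *Wnt5b*, a ligand known for signalling without β-catenin, at 9.62±1.08 CPM with vehicle and 11.5±1.41 CPM with indole (SD, *n*=7), with log2 fold change 0.25 (SE 0.103, edgeR adjusted *p*=0.998). It was also the most abundant gene of the list per kilobase.

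The groups overlapped for the ligand genes of the central vein. *Wnt2* ran from 1.36 to 3.71 CPM with vehicle and from 1.95 to 4.13 CPM with indole, with log2 fold change 0.39 (SE 0.212, edgeR adjusted *p*=0.998). *Rspo3* ran from 3.08 to 5.51 and from 3.16 to 6.88 CPM, with log2 fold change 0.20 (SE 0.168, edgeR adjusted *p*=0.998). *Wnt9b* had 2 to 27 reads per mouse, too few for the test. All 14 markers of endothelial cells, the source of these ligands in the lobule, had log2 fold changes above 0. Their median was 0.22, beside 0.0042 over all genes tested. At an unadjusted *p* below 0.05, 1 was higher (*Clec4g*, 0.37, SE 0.141) and 0 lower, beside 1.53% and 2.28% of all genes tested. Markers of the same cell type can move together, so these 14 directions are not separate observations. Their summed level was 94.3 to 156 CPM with vehicle (median 143) and 115 to 210.3 CPM with indole (median 157), and these ranges overlapped. Their part in the ligand values was not tested.

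Of 10 Wnt receptor genes tested, 1 was higher and 9 lower, with log2 fold changes from −0.20 to 0.031. Their median was −0.13, beside 0.0042 over all genes tested. At an unadjusted *p* below 0.05 it was 0 of them, where 1.53% of all genes tested were higher and 2.28% lower. These shares also stand beside the lists that follow. The R-spondin receptor gene *Lgr4* was at 52.5±2.99 and 50.5±9.78 CPM (vehicle and indole, SD, *n*=7), about 8.75 CPM per kilobase against 0.279 for *Lgr5*. *Ryk*, the most abundant receptor gene per kilobase, had log2 fold change −0.14 (SE 0.0784). Of 13 genes of β-catenin, its destruction complex and Dishevelled, 3 were higher and 10 lower, with a median of −0.050 and 0 at an unadjusted *p* below 0.05. The β-catenin gene *Ctnnb1* was at 165±9.54 and 163±10.3 CPM, with log2 fold change −0.025 (SE 0.0640). Of 6 TCF/LEF factor and cofactor genes tested, 3 were higher and 3 lower and 0 passed unadjusted. Among them *Tcf7l2* had log2 fold change 0.15 (SE 0.114) and *Pygo2*, the most abundant of them per kilobase, −0.17 (SE 0.124). Of 5 inhibitor genes tested out of 17, 4 were higher and 1 lower and 0 passed unadjusted. *Notum*, a secreted enzyme that inactivates Wnt ligands and is itself a Wnt target, was the most abundant of them per kilobase, from 29.6 to 38.2 CPM with vehicle and from 21.6 to 37.5 CPM with indole, with log2 fold change −0.12 (SE 0.105). The adjusted *p* of *Lgr4*, *Ryk*, *Ctnnb1*, *Tcf7l2*, *Pygo2* and *Notum* was 0.998 from edgeR.

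**Figure D5:**
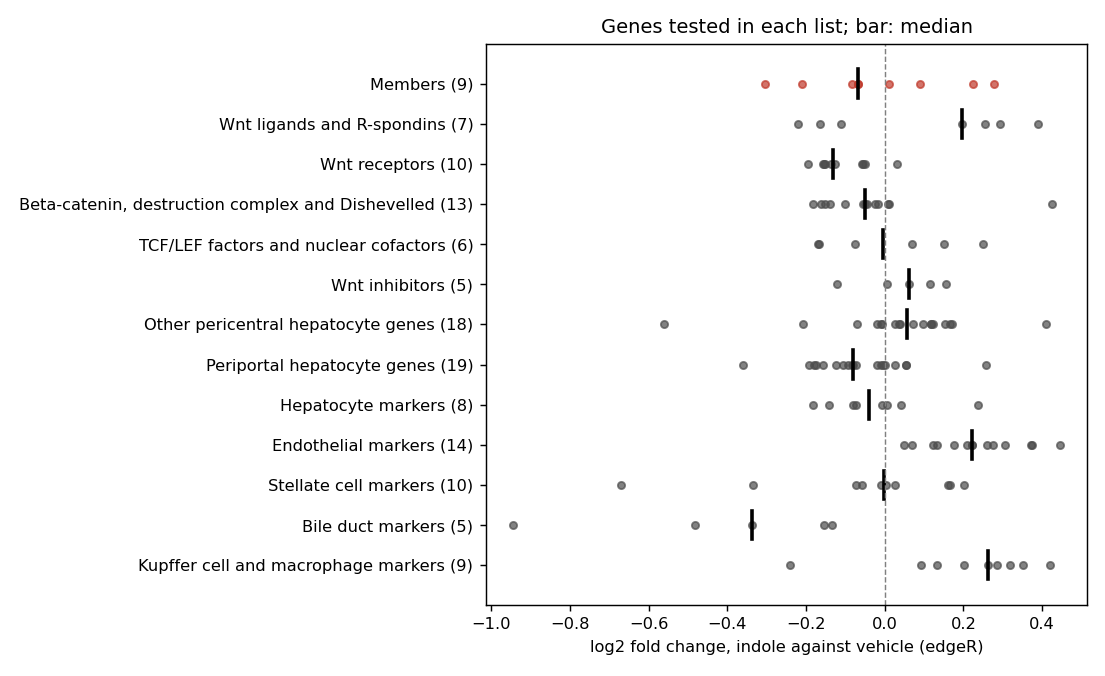
Log2 fold changes, indole against vehicle, of the genes tested in the members and in each of 12 lists (points, number in brackets), with the list's median as a bar. The members spread on both sides of 0 from −0.30 to 0.28. All 14 endothelial markers lie above 0 and all 5 bile duct markers below it. Markers of the same cell type are not separate observations, and 0 genes in any list passed after adjustment.

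Other genes of the 2 hepatocyte zones were set beside the members. Of 18 further pericentral genes tested, 12 were higher and 6 lower with indole. Of all genes tested, 1.53% were higher and 2.28% lower at an unadjusted *p* below 0.05. The list's median log2 fold change was 0.056, and at that threshold 3 of its genes were higher and 1 lower. The higher ones were *Cyp2c29* (0.41, SE 0.0878), *Cyp27a1*, a sterol hydroxylase of bile acid synthesis (0.16, SE 0.0635), and *Rgn*, which takes part in calcium handling and ascorbate synthesis (0.17, SE 0.0737). The lower one was the amino acid transporter gene *Slc16a10* (−0.21, SE 0.0961). *Cyp2c29* ran from 1625 to 2101 CPM with vehicle and from 2148 to 2776 CPM with indole. Its unadjusted *p* from edgeR was 0.000143, and the exact permutation test gave a two-sided *p* of 0.000583. Summed, the list stood at 9751 to 12618 CPM with vehicle (median 10220) and 11573 to 12538 CPM with indole (median 11812). The sums were not tested. *Cyp2e1*, the most abundant of the list per kilobase, ran from 3955 to 5574 CPM with vehicle and from 4360 to 4950 CPM with indole (0.036, SE 0.0783). Of 19 periportal genes, 5 were higher and 14 lower, with a median of −0.081, and 0 were higher and 2 lower at an unadjusted *p* below 0.05. These were *Cdh1*, which encodes E-cadherin (−0.36, SE 0.146), and *Pigr*, the receptor that carries IgA into bile (−0.17, SE 0.0720). The urea cycle gene *Ass1*, the most abundant periportal gene per kilobase, had log2 fold change −0.0093 (SE 0.125). Each of these genes had an adjusted *p* of 0.998 from edgeR.

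Markers of other cells were counted in the same way, beside 1.53% of all genes tested higher and 2.28% lower at an unadjusted *p* below 0.05. Of 8 hepatocyte markers found in the table, 3 were higher and 5 lower, and *Ttr*, the transthyretin gene, had an unadjusted *p* below 0.05 (0.24, SE 0.0843). Of 10 stellate cell markers, 5 were higher and 5 lower, with *Col1a1* at an unadjusted *p* below 0.05 (−0.67, SE 0.256), and *Dcn*, the most abundant per kilobase, had log2 fold change 0.026 (SE 0.105). All 5 bile duct markers tested were lower, with *Krt19* at an unadjusted *p* below 0.05 (−0.94, SE 0.291) and *Spp1*, the most abundant per kilobase, at −0.15 (SE 0.112). Of 9 Kupffer cell and macrophage markers, 8 were higher and 1 lower and 0 passed unadjusted, with *C1qa* the most abundant per kilobase (0.13, SE 0.303). Summed, the bile duct markers stood at 33.1 to 46.9 CPM with vehicle and 27.5 to 45.1 CPM with indole, and the macrophage markers at 93.8 to 251 CPM (median 179.8) and 114 to 463 CPM (median 169), with G8 at the upper end. Over the mice, the mean *z* score of each list was also set beside that of the members. Pearson's *r* was −0.55 for hepatocyte, −0.39 for macrophage, 0.18 for bile duct, 0.15 for endothelial and 0.12 for stellate cell markers. For the zone lists it was 0.076 for the further pericentral and −0.23 for the periportal genes. For the Wnt pathway lists it ran from 0.037 for the ligands to 0.57 for the TCF/LEF factors and cofactors. The adjusted *p* of each marker named was 0.998 from edgeR, and the part of these cells in the levels of the members was not tested.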

How the data were processed

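Liver RNA of 14 mice was measured by strand-specific mRNA sequencing. The authors trimmed adapters, aligned reads with HISAT2 to GRCm38 (Ensembl version 102), kept uniquely mapped reads and deposited raw counts per gene, the only unit used; the counting tool and its strand setting are not given in the sources used here. Groups came from the treatment label. The members and lists were chosen with earlier results of these data known.

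Counts were fitted with edgeR 4.0.16 in R 4.3.3 (filterByExpr, TMM, robust quasi-likelihood test, Benjamini–Hochberg over 12653 genes). Standard errors are the log2 fold change divided by the root of *F*. Single members were also compared by exact permutation over 3432 relabellings. Pairs of members were correlated on log2 CPM (prior count 2) with 100000 permutations, two-sided. The procedure was tested on simulated data. Named genes were the members, in each list the gene with most CPM per kilobase and those under an unadjusted *p* of 0.05, 6 preset Wnt genes, and the 5 genes most like *Glul* or the mean *z* score. Promoter sequences are from RefSeq (GRCm38.p6). Each mouse is 1 library. Totals of 15197498 to 21060376 reads leave a counting error of 0.497% of the level for *Oat* and 13.9% for *Lgr5* at the median count; it covers counting only. Alternatives were DESeq2 1.42.0, limma voom (3.58.1), RLE and upper quartile scaling, other filters, a non-robust fit, a surrogate variable (sva 3.50.0), group-centred values, a prior count of 0.5 and leaving out each mouse. Leaving out G8 with G11, and the 2 alternatives on the TMM factor above 1.05, were chosen after seeing the data.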

Additional observations from a re-analysis of the deposited data

Results flagged for a closer look

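For the 9 members and their mean *z* score, the mouse at either end of each group of 7 that lay farther from its neighbour was set against the spread from lowest to highest. In 1 of these 20 groups of values it passed Dixon's 95% critical value, and chance alone gives about 1 in 20. It was *Tbx3* in vehicle-treated mouse G1, which lay at 18.3 CPM against 15.4 CPM for the next mouse, a distance of 0.725 of that spread. G1 is among the 4 libraries with a high TMM factor, where *Tbx3* had a mean of 18.5 CPM against 14.6 CPM in the other 10.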

How the results depend on the processing

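No member had an adjusted *p* below 0.05 under any alternative, DESeq2 and limma voom included, and *Rhbg*, *Slc1a2*, *Rnf43* and *Znrf3* kept their direction in all of them. The members with log2 fold changes near 0 did not. *Glul* was at −0.047 with limma voom and −0.098 without the 4 libraries with a high TMM factor, *Tbx3* at −0.034 without those libraries, and *Lgr5* at 0.064 and *Oat* at 0.0035 without G8 and G11. Leaving out 1 mouse at a time, the value ran from −0.027 to 0.057 for *Glul*, from −0.21 to 0.10 for *Axin2* (above 0 without G4), from −0.22 to 0.069 for *Lgr5* (above 0 without G8), from −0.017 to 0.15 for *Tbx3* (below 0 without G2) and from −0.19 to 0.018 for *Oat* (above 0 without G2 or G6). The value ran from 0.19 to 0.34 for *Rhbg*, from 0.12 to 0.35 for *Slc1a2*, from −0.31 to −0.12 for *Rnf43* and from −0.38 to −0.24 for *Znrf3*. With limma voom *Slc1a2* was at 0.13. *Glul* was below 0 without G2, G3, G4, G6, G13 or G14. The count of members with an unadjusted *p* below 0.05 was 0 with limma voom and ran from 0 to 2 when 1 mouse was left out. Over all genes tested, the same count was 564 of 12653 with limma voom. When 1 mouse was left out it ran from 386 of 12747 (without G4) to 627 of 12788 (without G6). Unadjusted, 2 pairs of members had a *p* below 0.05 without the 4 libraries, and 2 to 6 when 1 mouse was left out, and 0 pairs passed after adjustment in each of these. No share over all gene pairs is given beside these counts. The cause was not tested. No paired analysis was possible because the 2 groups share no mouse number. Depth limits *Lgr5*, *Rhbg* and *Axin2* most, with medians of 52, 89.5 and 92.5 reads per mouse.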
